A study of Mus musculus with 4 samples.

Results

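The genes described here are 10 genes of astrocytes and of the switch to glial fate: the transcription factor genes Nfia, Nfib and Sox9, the growth factor receptor gene Fgfr3, the glutamate transporter genes Slc1a2 and Slc1a3, and Gfap, Aqp4, Gja1 and Aldh1l1, which serve as markers of astrocytes. All 10 were found by name among 21627 protein-coding genes of the autosomes 1 to 19 and chromosome X. The set was chosen by values of these same data, the heights of called regions at gene ends, so those values are given as a description, with no test. The question put to the data was whether few tall called regions of an experiment on Six3 lie at or near them. Six3 is a homeobox transcription factor of the forebrain.

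The data come from CUT&RUN, in which an antibody directs a nuclease to a bound protein and the released DNA is sequenced. Primary mouse neural stem cells of wild-type genotype overexpressed Six3 and were kept for 3 h in a neurobasal medium for neural differentiation. All 4 libraries shared this treatment: 3 were named for FLAG-tagged Six3 and 1 for IgG, the control antibody. The labels do not say how Six3 was introduced or whether the libraries came from separate cultures. The analysed table listed 1578514 called regions, each with a summed and a highest signal, and it did not separate the libraries. FLAG therefore could not be set against IgG, and a called region cannot be named a site of Six3. No value has a replicate error and depth is unknown. The cells could not be checked against markers, since no expression was measured.

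Astrocytes arise from neural stem cells after most neurons have formed. Sox9 and the nuclear factor I proteins Nfia and Nfib take part in this change, in which stem cells become able to switch on genes such as Gfap. Mature astrocytes clear glutamate through Slc1a2 and Slc1a3, pass water through Aqp4 and couple to each other through channels made of Gja1. Six3 is known for patterning of the anterior forebrain and the eye.

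The highest signals fell into 2 series, whole multiples of 1.9 (945651 regions, here 1.9-step regions, median width 455 bp) and whole multiples of 0.48 (632860 regions, 0.48-step regions, median width 195 bp). Signals of the series need not share a scale. A region is called tall here when its highest signal was 7.6 or more, and 13.6% of regions were. On the chromosomes used, 1.9-step regions were at least 2 steps high and 22.7% of them were tall. The median height of 1.9-step regions in the whole table was 5.7. Of the 215151 tall regions, 215148 were 1.9-step regions and 3 could not be placed in 1 series, so tallness says nothing of the 0.48-step regions, which reached at most 4.32. Within 50 kb of the 10 genes lay 1462 regions, 910 of them 1.9-step, 552 of them 0.48-step and 219 of them tall. Called regions covered a median of 27.3% of the bases in the gene and 50 kb either side. Over all genes the median was 25.1%.

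RefSeq promoter windows (GRCm38.p6, 250 bases before to 50 bases after a start) were at hand for 7 of the 10 genes, namely Gfap, Aldh1l1, Slc1a2, Slc1a3, Gja1, Nfia and Fgfr3, with 8 windows in all. For Nfia (97581943), Slc1a2 (102706438), Aldh1l1 (90550793) and the second window of Fgfr3 (33722306) the window belongs to a start inside the gene, not to the outer gene start used for all other values here. Called regions reached into 4 of these windows. The 250 bases before the start are printed for 3 of those genes, because they show which sequence these regions covered. Each is written 5′ to 3′ along the gene, with capitals for ATTA or TAAT, the core read by many homeobox proteins.
Aldh1l1 (chr6:90550543-90550792, plus strand): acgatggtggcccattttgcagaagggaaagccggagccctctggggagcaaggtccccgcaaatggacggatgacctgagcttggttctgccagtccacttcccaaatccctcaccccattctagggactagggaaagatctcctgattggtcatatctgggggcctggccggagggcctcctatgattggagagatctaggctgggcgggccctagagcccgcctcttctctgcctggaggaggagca
Fgfr3 (chr5:33721474-33721723, plus strand): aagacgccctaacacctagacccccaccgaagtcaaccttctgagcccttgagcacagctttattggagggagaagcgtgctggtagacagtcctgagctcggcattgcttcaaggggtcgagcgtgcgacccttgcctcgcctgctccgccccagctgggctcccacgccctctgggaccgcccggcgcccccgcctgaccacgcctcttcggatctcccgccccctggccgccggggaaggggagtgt
Slc1a3 (chr15:8710808-8711057, minus strand): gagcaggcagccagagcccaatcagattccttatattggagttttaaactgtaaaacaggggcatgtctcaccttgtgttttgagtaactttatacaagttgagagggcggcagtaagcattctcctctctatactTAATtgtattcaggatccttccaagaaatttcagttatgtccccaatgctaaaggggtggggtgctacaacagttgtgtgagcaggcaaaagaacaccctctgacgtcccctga

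In Aldh1l1 a 1.9-step region of height 5.7 covered bases 1 to 124 of the window, counted from its 5′ edge. In Fgfr3 a 1.9-step region of height 3.8 covered bases 65 to 300, which include the start. In Slc1a3 a 0.48-step region of height 0.96 covered bases 1 to 72. The fourth window was that of the inner Nfia start, where a 0.48-step region of height 2.4 (chr4:97581848-97582192) covered bases 156 to 300. None of these regions was tall. The 0.48-step regions could not be. Those of Aldh1l1 and Fgfr3 lay within 1 kb of a gene end, where the choice of the genes allowed no tall region.

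ATTA or TAAT stood in 3 of the 8 windows, those of Nfia, Gja1 and Slc1a3, and in 58.0% of all 32851 promoter windows of 300 bases. Of the matches in these genes, only the ATTA at the inner Nfia start (chr4:97581943-97581946) lay inside a called region. It is shown within 30 bases.
Nfia (chr4:97581930-97581959, plus strand): aaatgttttctcaATTAggtgtcttatctc

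The letters TGATAC or GTATCA, a motif known for Six3 and related proteins, were searched on both strands and stood in 1 window, that of Gja1, and in 5.46% of all windows. The match lay 44 bases into the gene (chr10:56377343-56377348) and is in capitals below.
Gja1 (chr10:56377320-56377349, plus strand): aagttaaaaaacgcttttacgagGTATCAg

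No called region touched the Gja1 window. The nearest, of height 5.7, began 606 bp after the start. A match of letters is a description of the sequence and was not compared with binding.

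Every one of the 10 genes had a called region within 1 kb of an end, and none of these regions was tall. Of all genes, 94.2% had a region there and 39.0% had a tall one. The highest signal at the ends was 5.7 in 8 of the genes (73.9% of all genes reached 5.7 or more) and 3.8 in Gfap and Slc1a2. Among all genes 35.0% had 5.7 as the highest value at their ends, 14.1% had 3.8 and 25.7% had 7.6, the next step up. These heights chose the genes, and nothing is read from the count of 0. The ends of the 10 genes held 26 regions, 18 of the 1.9-step and 8 of the 0.48-step series, the latter at 5 genes against 65.7% of all genes. All 1.9-step regions there were 3.8 high (7 regions) or 5.7 high (11 regions). For the 7 genes of known strand a region of some height lay within 1 kb of the start in all 7, against 82.5% of all genes, and over the start itself in Fgfr3 and Nfia, against 26.0%.

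**Figure D1:**
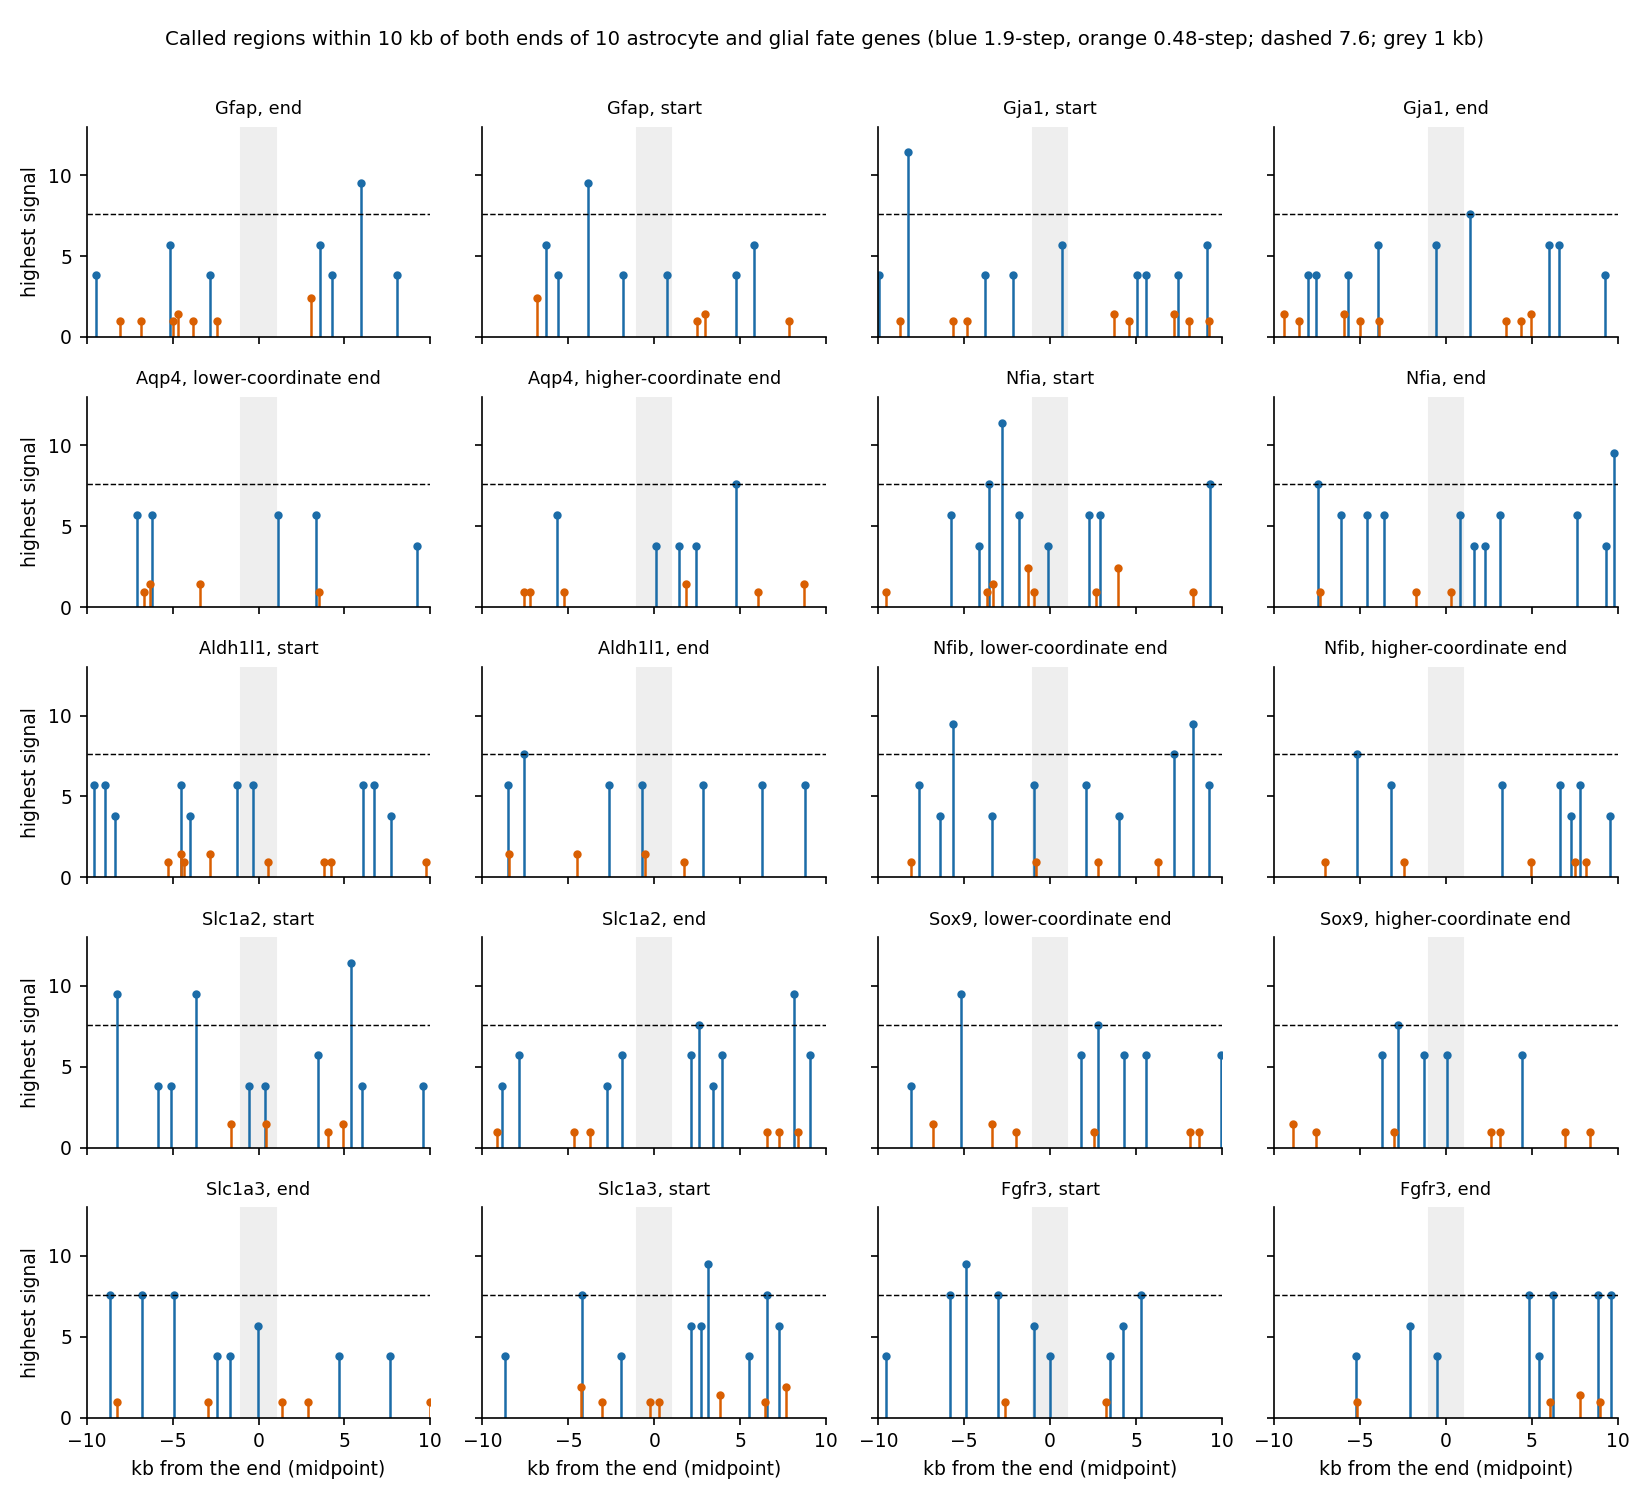
Highest signal of each called region (vertical axis, signal as deposited) against the distance of its midpoint from a gene end in kb along increasing coordinates (horizontal axis), for both ends of the 10 genes; blue is 1.9-step, orange 0.48-step, the dashed line is 7.6 and the grey band is 1 kb either side. No tall region falls in a grey band, which the choice of the genes fixed, while 9 of the genes have at least 1 within 5 kb.

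The highest signal at the ends of each transcription factor gene was 5.7, also the median over all genes, and tall regions lay a few kb away. A tall region within 5 kb of an end was found in 79.2% of all genes. Nfia (chromosome 4, 97578066 to 98118876, 540.8 kb), whose product opens astrocyte genes during gliogenesis, had a 1.9-step region of height 3.8 over its start at 97577632 to 97578213 and 1 of height 5.7 at 667 bp beyond its end. A region of height 11.4 lay outside genes 2.67 kb before the start (97575094 to 97575394). Of the 0.48-step regions of 5 steps, 5 lay near the 10 genes and 3 of these near Nfia, at 97576624 to 97576909, 97581848 to 97582192 and 98145849 to 98146076, each with a highest signal of 2.4. A 0.48-step region of at least 5 steps lay within 50 kb of 21.3% of all genes, and long genes have more room for one.

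Nfib (chromosome 4, 82290173 to 82506751), a second nuclear factor I gene, had regions at its lower-coordinate end only, of heights 5.7 and 0.96. Its tall regions nearest to an end lay 5.33 kb outside the lower-coordinate end (height 9.5) and 4.82 kb inside the higher-coordinate end (height 7.6). Sox9 (chromosome 11, 112782210 to 112787757), which encodes a factor of stem cells and astrocytes, had 2 regions of height 5.7 at its higher-coordinate end and none at the other. A tall region of height 7.6 stood inside Sox9 at 112784740 to 112785223, about equally far from both ends (2.53 kb). The strand of Nfib, Sox9 and Aqp4 was not used here, so their ends are given by coordinate.

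Fgfr3 (chromosome 5, 33721724 to 33737068), a receptor for fibroblast growth factors found on astrocyte precursors, had regions of height 3.8 over its start and 5.7 at 613 bp before it. Its nearest tall region lay 2.71 kb before the start (33718373 to 33719012, height 7.6). In the gene itself 1 of 20 tall regions of its neighbourhood was found, 8 lay in the neighbours Letm1 and Tacc3, and 11 lay outside genes.

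The glutamate transporter genes differed from each other at their starts. Slc1a2 (chromosome 2, 102658239 to 102790784) encodes the main glutamate transporter of mature astrocytes. Its start had 1.9-step regions of height 3.8 on either side and a 0.48-step region of height 1.44, and its end had no region within 1 kb. Tall regions lay 3.32 kb before the start (height 9.5) and inside the gene at 102663480 to 102663763, 5.24 kb after it (height 11.4). Slc1a3 (chromosome 15, 8634124 to 8710807), the transporter of radial glia and early astrocytes, had only 0.48-step regions at its start, both 0.96 high, and a region of height 5.7 over its end. A tall region of height 9.5 lay 2.95 kb before the start, at 8713754 to 8714109.

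Gfap (chromosome 11, 102887336 to 102897200) encodes the intermediate filament protein of astrocytes. Its start had a single region, 3.8 high and 476 bp before it, and its end had none. The tallest region in the gene, at 102892808 to 102893844, was 9.5 high and 3.36 kb after the start. The gene also held a 0.48-step region of 5 steps at 102890156 to 102890644. Aqp4 (chromosome 18, 15389394 to 15410982), the water channel of astrocyte endfeet, had regions of height 5.7 and 3.8 at its ends and a tall region of 7.6 outside its higher-coordinate end, 4.48 kb away.

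Gja1 (chromosome 10, 56377300 to 56390419) encodes connexin 43, the main gap junction protein of astrocytes, and was the only 1 of the 10 with no tall region in the gene body. Over all genes 69.2% had a tall region there. That share allows neither for gene length nor for the choice of the genes, which kept tall regions out of 1 kb inside each end. The ends of Gja1 had regions of height 5.7. Just outside the window, 1.18 kb beyond its end, stood a region of 7.6 (56391596 to 56392074), the closest tall region to any end of the 10 genes. A region of 11.4 lay 7.94 kb before the start. Aldh1l1 (chromosome 6, 90550768 to 90599171), an enzyme gene of folate metabolism used to label astrocytes, had regions of 5.7 at both ends and the most distant tall region, 7.36 kb from an end and inside the gene.

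A wider window changed the count. Within 2 kb of an end 1 of the 10 genes had a tall region (Gja1), against 55.9% of all genes. Within 5 kb 9 of the 10 had 1, all but Aldh1l1, against 79.2% of all genes. The distance from either end to the nearest tall region ran from 1177 bp to 7364 bp with a median of 2829.5 bp, against a median of 1631 bp over all genes. This distance contains the choice of the genes, since it had to exceed 1 kb. So do the counts within 2 kb and 5 kb, whose windows include that 1 kb. Nothing is read from their contrast with all genes.

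**Figure D2:**
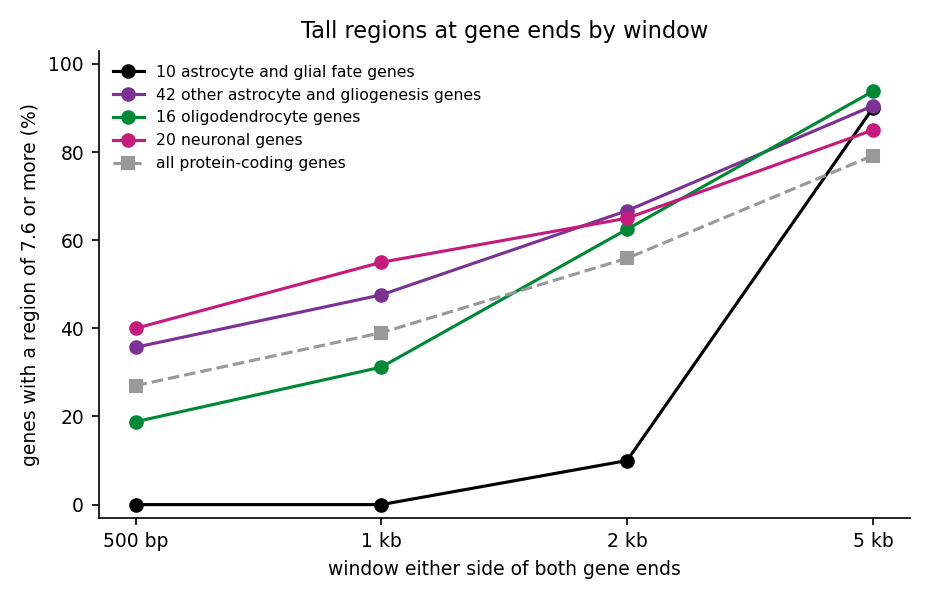
Share of genes with a region of 7.6 or more (vertical axis, %) by the width of the window placed either side of both gene ends (horizontal axis), for the 10 genes, the other lists and all protein-coding genes. The 10 genes stand at 0, 0, 10 and 90%, against 27.0, 39.0, 55.9 and 79.2% of all genes. Their values of 0 follow from the choice of the genes, and the wider windows contain the 1 kb that chose them.

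Outside the ends, regions of the 10 genes were counted by distance, with each region placed at its highest signal. In the first 1 kb outside the gene there were 0 tall regions, which the choice of the genes fixed, and from 1 to 2.5 kb there was 1. From 2.5 to 5 kb there were 10, or 200 per Mb, against 96.6 per Mb over all genes. From 5 to 10 kb there were 13 (130 per Mb, against 94.8), from 10 to 25 kb 22 (73.3 against 93.8) and from 25 to 50 kb 65 (130 against 94.3). Each of the nearer distances holds under 20 tall regions, so these densities are coarse. Regions of the 1.9-step series of any height stood at 350 per Mb in the first 1 kb, from 7 regions, against 409 over all genes. Tall regions belong to this series and count in the value over all genes. The choice of the genes kept them out of the value of the 10 genes, so nothing is read from this difference. Regions of the 0.48-step series stood at 200 per Mb in the first 1 kb against 245, from 4 regions.

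**Figure D3:**
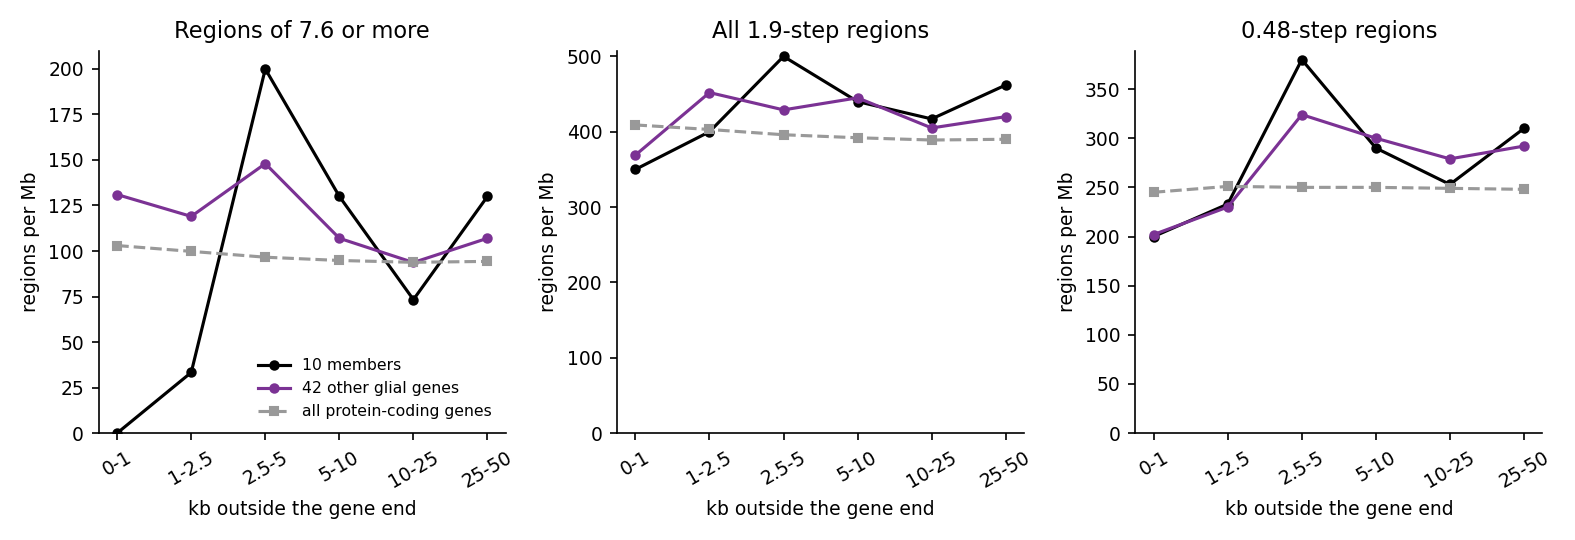
Called regions per Mb (vertical axes) by distance outside the gene ends in kb (horizontal axes), for tall regions, all 1.9-step regions and 0.48-step regions, pooled over the 10 genes (black), 42 other glial genes (purple) and all protein-coding genes (grey). The 0 tall regions of the 10 genes in the first 1 kb follow from the choice of the genes, which also keeps tall regions out of their 1.9-step value there. Between 2.5 and 5 kb the value is 200 per Mb, from 10 regions, and between 10 and 25 kb it is 73.3.

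Over the gene and 50 kb either side, all 10 genes had tall regions, as did 98.1% of all genes. Their density had a median of 108.1 tall regions per Mb, from 47.4 at Sox9 to 173.4 at Fgfr3, against a median of 91.3 over all genes, with quartiles of 67.3 and 115.3. By this measure 6 of the 10 lay above the median of all genes, which 50% exceed by construction (Fgfr3, Aqp4, Aldh1l1, Slc1a2, Slc1a3 and Nfia). Each gene was then ranked against the 500 next shorter and 500 next longer genes, with ties counted evenly. Nfia, one of the longest genes, was ranked against 695. The percentile of tall regions per Mb had a median of 69.5. It was over 75 in 4 genes, against 24.8% of all genes, and under 25 in 2, against 25%.

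The genes spread along this ranking. Fgfr3 stood at percentile 95.5 with 20 tall regions, 1 of them in the gene. Nfia stood at 85.0 with 70 tall regions, of which 59 lay in the gene, and Slc1a2 at 84.8 with 28. Aldh1l1 stood at 83.3 with 19, of which 8 lay in the gene, and in the gene body alone it had the highest percentile of the 10, 90.6. Slc1a3 stood at 71.6 with 20 and Aqp4 at 67.4 with 13. The low side was held by Nfib at 43.0 with 27, Gja1 at 39.8 with 10, Gfap at 21.3 with 7 and Sox9 at 14.1 with 5. In the gene body alone 7 of the 10 ranks lay on the other side of percentile 50. Fgfr3 (38.0), Slc1a2 (39.0), Slc1a3 (35.8) and Aqp4 (27.2) then lay below it. Sox9 (70.5), Gfap (56.3) and Nfib (53.0) lay above it, although Sox9 and Gfap each had a single tall region in the gene. The choice of the genes kept tall regions out of the 1 kb inside each end. The gene body ranks contain that choice, which takes the largest share of the short genes.

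Of the 219 tall regions near the 10 genes, 108 lay in the genes themselves, 27 in other protein-coding genes and 84 outside genes. Nfia alone held 59 of the 108. The other genes were Cd44 and Pamr1 at Slc1a2 (11 tall regions), Letm1 and Tacc3 at Fgfr3 (8), 6 genes at Gfap (5), Slc41a3 at Aldh1l1 (2) and Chst9 at Aqp4 (1). Around Nfia, Nfib, Sox9, Gja1 and Slc1a3 there was no other protein-coding gene within 50 kb. Exons and introns were not used here.

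By the highest signal within 50 kb, the 10 genes had a median percentile of 54.3 among genes of similar length, from 30.1 to 87.9. Long genes have wider windows, which the shares over all genes given next do not allow for. A region of 11.4 or more lay within 50 kb of 7 of the 10, against 51.6% of all genes, and a region of 13.3 within 50 kb of 2, Nfia and Aldh1l1, against 18.1%. At Aldh1l1 these were at 90534679 to 90535312, 15.5 kb before the start and outside genes, and at 90632693 to 90632976 in Slc41a3. At Nfia both lay inside the gene, at 97871339 to 97872202 and 98045204 to 98045709. Near Gfap, Aqp4 and Sox9 no region exceeded 9.5.

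**Figure D4:**
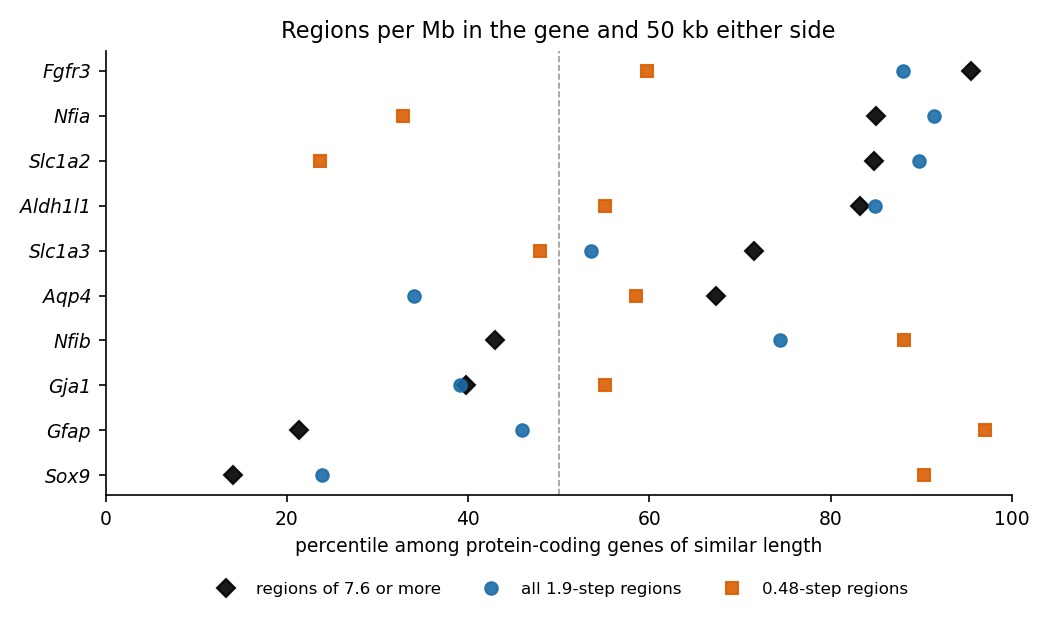
Percentile of regions per Mb in the gene and 50 kb either side among protein-coding genes of similar length (horizontal axis), for each of the 10 genes (vertical axis); black diamonds are tall regions, blue circles all 1.9-step regions, orange squares 0.48-step regions, and the dashed line marks 50. Gfap and Sox9 lie lowest for tall regions and highest for 0.48-step regions.

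The series of steps ranked the genes differently. For 1.9-step regions of any height the median was 421.4 per Mb against 404.2 over all genes, and the percentile was over 75 in the same 4 genes as for tall regions (Fgfr3, Aldh1l1, Slc1a2 and Nfia), against 24.9% of all genes. Tall regions are part of that series, so this is no separate evidence. For 0.48-step regions, which no height rule touched, the median was 264.2 per Mb against 254.9. The highest percentiles of that series were those of Gfap (97.0, 39 regions), Sox9 (90.3, 34 regions) and Nfib (88.1, 92 regions), and 25% of all genes lay over 75. The lowest were those of Slc1a2 (23.6) and Nfia (32.8).

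Most members ranked low for 0.48-step regions inside the genes when set against genes of similar length. In the gene body 8 of the 10 lay under percentile 50 for their length, against 52.5% of all genes, with a median percentile of 24.7. Of these, Slc1a2 lay just under 50, at 49.8. Pooled over the 10 gene bodies, 0.48-step regions stood at 242 per Mb, close to the 253 over all genes. Gfap and Sox9 each had 1 such region in the gene and Fgfr3 had 2, while Nfib (64 regions, percentile 88.0) and Gja1 (5 regions, percentile 80) stood high. The high ranks of Gfap and Sox9 within 50 kb came from regions beside the genes.

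Most heights near the 10 genes had shares close to those of the whole table. Of the 1.9-step regions 35.4% were 2 steps high, 40.5% 3 steps, 17.4% 4 steps and 4.51% 5 steps, against 36.5, 40.8, 16.5 and 4.65% over all. Those of 6 or more steps made up 2.2% (20 of 910), against 1.63% over all. Tall regions made up 24.1% of the 1.9-step regions near the genes and 22.7% over all, from 13.5% at Sox9 and 15.9% at Gfap to 35.1% at Fgfr3. A 1.9-step region overlapped 29.7% of the 0.48-step regions near the genes, against 27.7% over all. That share was 51.6% at Fgfr3 (16 of 31) and 8.82% at Sox9 (3 of 34). Of the tall regions 20.5% touched a 0.48-step region, against 18.7% over all.

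Relative to the median bin of the autosomes, the summed 1.9-step signal in the 500 kb bin of each gene ran from 0.843 at Gja1 to 1.36 at Slc1a2, with a median of 1.12 against 1.07 over all genes. None of the 10 lay in a segment of raised signal, which held 3.54% of all genes. Of the 4 genes over percentile 75 for tall regions, Fgfr3 had a local level of 1.34, Slc1a2 of 1.36, Aldh1l1 of 1.29 and Nfia of 1.19. The 2 genes under percentile 25, Gfap and Sox9, had levels of 1.15 and 1.01. The part of the local level in the ranks was not tested.

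Other genes of the same cells and pathways were counted at their ends in the same way. The 10 genes were chosen by the heights at their ends, so nothing is read from a contrast with them. Of 42 other astrocyte and gliogenesis genes, which include further markers and the genes of the LIF, BMP and Notch signals that promote astrocytes, 20 had a tall region within 1 kb of an end (47.6%, against 39.0% of all genes). The highest were Ndrg2 (13.3), an astrocyte marker, Kcnj10 (11.4), the potassium channel gene of astrocytes, and Aldoc (9.5), an aldolase gene of astrocytes, followed by Apoe (7.6), the apolipoprotein gene, first by the alphabet among genes at that height. Oligodendrocyte genes had 5 of 16 (31.2%) and neuronal genes 11 of 20 (55.0%). These lists were written with earlier results known, and no test was made between them.

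Near the other 42 genes the density of tall regions had a median percentile of 66.2, close to the 69.5 of the 10 genes. The highest were Mlc1 (96.6), a membrane protein gene of astrocytes that lies in a segment of raised signal with a local level of 1.65, Rbpj (95.1), the DNA-binding partner of Notch, Il6st (94.2), the shared receptor of LIF and CNTF, and the receptor gene Fgfr1 (93.9). The lowest were Gpc4 (2.6) on chromosome X, where the local level was 0.547, the BMP effector gene Smad1 (9.3), Fgfr2 (10.6) and Clu (17.8). Of the fibroblast growth factor receptor genes in the lists, percentiles were 95.5 (Fgfr3), 93.9 (Fgfr1) and 10.6 (Fgfr2).

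Oligodendrocyte genes had a median percentile of 48.2 and neuronal genes 58.3. The highest oligodendrocyte genes were Cspg4 (94.8), a proteoglycan gene of precursor cells, and Sox10 (92.0), a factor of the lineage whose gene lies in a raised segment. Gpr17, a receptor gene of the lineage, stood at 17.8. Among neuronal genes the proneural factor gene Neurog1 (95.3) was highest, and Dcx (1.3) and Syn1 (9.8), both on chromosome X, were lowest, with local levels of 0.474 and 0.5.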

How the data were processed

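The authors made the highest coverage signal of each called region, and that signal summed over its bases, from aligned reads, per the labels' list of tools; both were used as deposited, from a table laid out like SEACR output. Bowtie2, deepTools, SEACR and the mm10 build are named, per the submitters' processing notes, without versions or parameters. Spike-in scaling and BEDOPS appear in the table's name alone, and no source says how libraries were combined.

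Heights were put in a step series when they were within 0.001 of a whole multiple of 1.9 or of 0.48 and not of both. Protein-coding genes came from RefSeq (GRCm38.p6), counted once per symbol; the gene table gives no strand, so strand was taken from the RefSeq promoter table (17273 genes). A region counted for a window by any overlap. A gene lay in a raised segment when its 500 kb bin and neighbours, 3 or more in a row, each had a local level over 1.6.

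The members and lists were chosen with earlier results of these data known. All 88 genes of the 4 lists matched a symbol. Named genes are the 10 members, and from the other lists those with the highest and lowest percentile of tall regions or, for the 42 glial genes, the highest signal at an end, with ties in order of the alphabet. Some genes that this rule selects are not reported here. With no column for a library, edgeR or limma could not be used and no p-value is given. Counting and ranking were tested on simulated data. Python 3.11.15, numpy 2.4.6, pandas 2.3.3 and matplotlib 3.10.9 were used.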

Additional observations from a re-analysis of the deposited data

How the results depend on the processing

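Each result was recomputed with other windows, heights, placements and rankings; of 47 alternative values of the main results 41 stayed within 1.5 times the main value. The count of 0 members with a tall region at an end became 1 within 2 kb, 9 within 5 kb and 8 with heights of 5.7 or more. It stayed 0 within 500 bp, at 9.5 or more, and with regions placed by midpoint or highest signal. Those stricter settings could only give 0 once the main count was 0, so they lend it no support. They are among the 41. The median percentile of tall regions, 69.5, was 46.0 in the gene body alone and between 56.6 and 71.8 otherwise. The gene body value contains the choice of the genes, which kept tall regions out of the 1 kb inside each end. That of all regions, 76.2, was 49.1 with 25 kb either side. That of 0.48-step regions, 56.8, was 24.7 in the gene body and 38.1 with 25 kb either side. Regions at the gene start were found in 7 of 7 members with a known strand (82.5% of all genes) and in 6 within 500 bp (64.8%). With the starts of the promoter table, an alternative chosen after seeing the data, they were found in 7 (83.8%). The local level was 1.12 with bins of 500 kb and 1.16 with bins of 1 Mb.

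For single genes the percentile of tall regions crossed 50 in at least 1 of 10 alternatives, except for Aldh1l1 and Nfia; Nfib crossed it in 5. Leaving out each replicate was not run, since the table has no column for a library. No paired analysis was possible because the table does not separate replicates. Depth is unknown, so no limit on undetected regions can be given.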
